A study of Canis lupus familiaris with 6 samples.

Results

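The genes described here are those of the MHC class II presentation machinery that carry a symbol beginning with DLA-D or HLA-D, together with CD74 and CIITA. Of the 31512 genes measured, 6 met this rule: DLA-DRA, DLA-DQA1, DLA-DMB, DLA-DOA, CD74 and CIITA. All 6 had a mean of at least 1 FPKM (fragments on a gene, scaled to its length and to the library size) over the 6 dogs and were tested. Among them are no DR or DQ beta chain and no partner chain of DLA-DMB or DLA-DOA, which were not analysed here under a symbol.

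Whole blood RNA came from adult Beagle dogs of 1.5 years, with 3 libraries of the control group and 3 of the CPP-Se group. The labels number them as biological replicates, and each library is taken here as 1 dog. Both groups ate the same maintenance food and 30 g of a snack, which held no supplement in the control group and 0.03% casein phosphopeptide-selenium chelate (CPP-Se) in the other, and blood was drawn on day 30. The study fed 12 dogs, so at 1 dog per library the libraries cover part of each group. How dogs were chosen or combined for the libraries is not stated. Hemoglobin genes took 48.7% to 55.9% of the reads on genes in 5 of the dogs, as whole blood does, and 36.6% in CPP-Se replicate 2. That library also stood apart in its scaling, since the library size implied by its FPKM was 1.65 times its reads on genes, against 0.882 to 1.05 times in the other dogs. Reads on genes ranged from 6598173 to 8067034 per dog.

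MHC class II molecules display peptides from the endosomes to CD4 T cells, and each is a pair of an alpha and a beta chain. In blood they are carried mainly by B cells, monocytes and dendritic cells, and in the dog also by most resting T cells. CD74, the invariant chain, holds the new pair together and fills its groove. DM then exchanges the remnant of CD74 for a peptide, and DO, which is found mostly in B cells, holds DM back. CIITA binds no DNA itself but switches on the class II genes and CD74 through factors bound to their promoters, and its own transcription starts from promoters that differ between cell types.

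CD74 was the most abundant of the 6 genes, and DLA-DOA the least, in every dog. The mean over the 6 dogs was 753 FPKM for CD74, which placed it at position 58 of all genes, 205 FPKM for DLA-DRA, 45.7 FPKM for DLA-DMB, 39.8 FPKM for DLA-DQA1, 16.6 FPKM for CIITA and 3.41 FPKM for DLA-DOA. In this order of levels, all neighbours were separated without overlap of the dogs except DLA-DMB and DLA-DQA1, of which DLA-DMB was higher in 4 of 6 dogs. CD74 exceeded DLA-DRA 3.07 to 4.25 times within a dog, and DLA-DRA exceeded DLA-DMB 3.86 to 5.22 times.

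**Figure D1:**
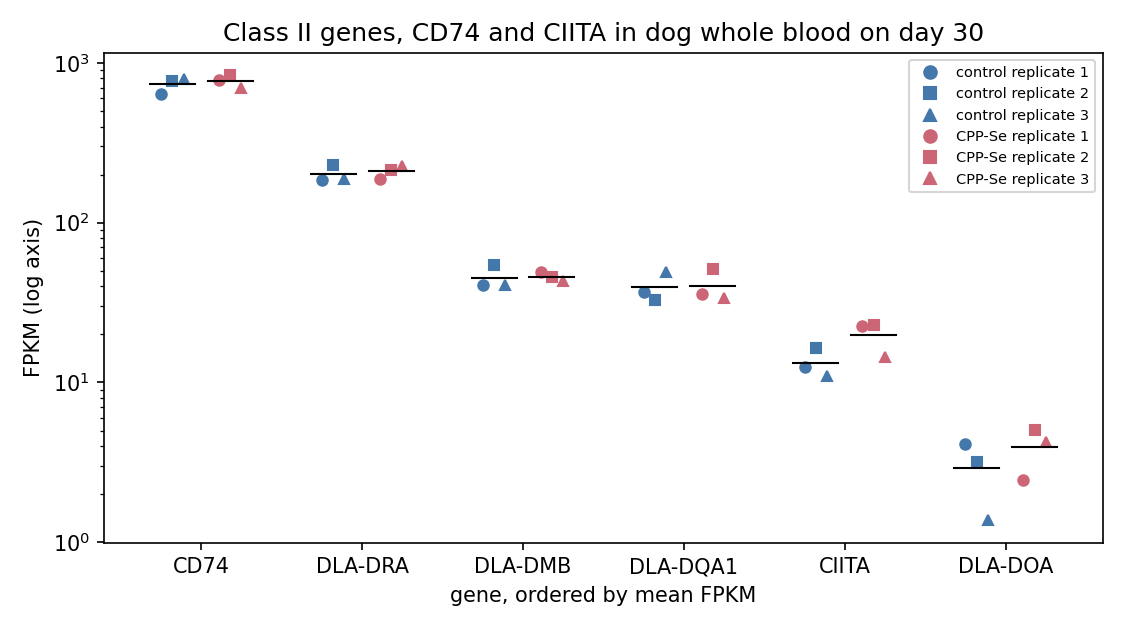
FPKM on a log axis of the 6 genes in each dog, with control dogs in blue, CPP-Se dogs in red, a symbol for each replicate and a black line at the mean of 3 dogs. The groups overlap in every gene, and the means lie apart most for CIITA, at 13.3 and 20.0 FPKM.

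The means of CD74, DLA-DRA, DLA-DMB and DLA-DQA1 were close between the groups, DLA-DOA averaged 2.90 FPKM in the control and 3.93 FPKM in the CPP-Se dogs, and CIITA was higher in 2 of the 3 CPP-Se dogs than in any control dog. None of the 6 genes was called, which required at least a 1.5-fold difference with an adjusted p below 0.05 (limma with Benjamini-Hochberg adjustment over 9847 genes, adjusted p from 0.335 to 0.968), where 0.0305% of all genes tested were called. By the unadjusted p, 0 of the 6 were below 0.05, against a background of 6.87% of genes higher and 9.1% lower under CPP-Se. The dogs of the groups lay apart without overlap in 0 of the 6, against 10.4% of genes higher and 12.6% lower. All 6 log2 fold changes were above 0, as were 4884 of the 9847 genes tested. Their median was 0.07 beside a median of -0.0043 over all genes tested. Those of CD74, DLA-DMB and DLA-DQA1 changed sign when certain dogs were left out. The p-values measure the spread between 3 dogs and 3 dogs.

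DLA-DRA (ENSCAFG00000000803, chromosome 12, 2132499 to 2168975, plus strand, in the dog genome of Ensembl release 100) encodes the DR alpha chain, which hardly varies between individuals. Its gene model spans 36477 bases, and whether it holds reads of more than 1 gene was not tested. Its level was 184, 230.3 and 188 FPKM in control replicates 1, 2 and 3 and 189, 215 and 226 FPKM in CPP-Se replicates 1, 2 and 3, from 2340 to 5530 reads per dog. The highest and lowest dog both belonged to the control group. The means were 201 ± 25.7 FPKM and 209.9 ± 18.9 FPKM (SD, n = 3 dogs in each group, as for all genes below). The log2 fold change was 0.07 (standard error 0.20, adjusted p = 0.902 from limma), with a 95% interval from 0.762-fold to 1.44-fold, and with a dog left out it was 0.0091 to 0.17, the lowest without control replicate 1 and the highest without control replicate 2.

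DLA-DQA1 (ENSCAFG00000000812, chromosome 12, 2221137 to 2227600, plus strand) encodes the DQ alpha chain, one of the variable class II chains. It measured 36.6, 32.7 and 48.9 FPKM in the control dogs against 35.6, 51.1 and 33.9 FPKM in the CPP-Se dogs. Control replicate 3 and CPP-Se replicate 2 were the high dogs, 1 in each group, and the other 4 lay between 32.7 and 36.6 FPKM. Its log2 fold change was 0.02 (standard error 0.24, adjusted p = 0.968), with an interval of 0.694-fold to 1.49-fold, and it turned to between -0.16 and -0.02 without CPP-Se replicate 2, control replicate 2 or control replicate 1. Reads were aligned to a single reference genome, and the effect of each dog's own DQ alleles on the count was not tested.

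CD74 (ENSCAFG00000018101, chromosome 4, 58689752 to 58698151, plus strand) had 639, 773 and 799 FPKM in the control dogs against 778, 837 and 693 FPKM in the CPP-Se dogs. It rested on 9818 to 25835 reads per dog, the most of the 6 genes. The group means of 737 ± 85.5 FPKM and 769 ± 72.3 FPKM gave a log2 fold change of 0.06 with a standard error of 0.22 (adjusted p = 0.917). Its interval ran from 0.730-fold to 1.499-fold, and without control replicate 1, the lowest dog, the value was -0.03.

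DLA-DMB (ENSCAFG00000000848, chromosome 12, 2503325 to 2533990, minus strand) encodes the beta chain of the peptide exchanger DM. Levels of 40.9, 54.1 and 40.9 FPKM in the control dogs stood beside 48.9, 45.8 and 43.3 FPKM in the CPP-Se dogs, so all CPP-Se dogs lay inside the control range. The log2 fold change was 0.03 (standard error 0.19, adjusted p = 0.951), with an interval of 0.757-fold to 1.38-fold, and it turned to between -0.03 and -0.01 without control replicate 1, control replicate 3 or CPP-Se replicate 1. The gene model spans 30666 bases, and whether it holds reads of more than 1 gene, which would enter the ratios below too, was not tested. Read along its own strand, the gene model starts 43 bases from BRD2, which lies on the other strand. How the counting assigned reads near that boundary is not stated.

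DLA-DOA (ENSCAFG00000000896, chromosome 12, 2563673 to 2568328, minus strand) encodes the alpha chain of DO. Its reads numbered 77, 55 and 30 in the control group against 43, 183 and 71 in the CPP-Se group, the fewest of the 6 genes. In FPKM these were 4.15, 3.17 and 1.37 in the control group and 2.47, 5.04 and 4.26 in the CPP-Se group, so the groups overlapped across most of their range. The log2 fold change was 0.37 (standard error 0.34, adjusted p = 0.631), and its interval of 0.748-fold to 2.24-fold is the widest of the 6. Without control replicate 3, the dog with 30 reads, it was 0.05, and it was 0.61 without control replicate 1 or without CPP-Se replicate 1.

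CIITA (ENSCAFG00000018931, chromosome 6, 31774609 to 31836820, minus strand), the switch of the class II genes, had the lowest p of the 6 genes. It measured 12.5, 16.4 and 11.0 FPKM in control replicates 1, 2 and 3 and 22.6, 22.9 and 14.4 FPKM in CPP-Se replicates 1, 2 and 3, from 477 to 1717 reads per dog. CPP-Se replicates 1 and 2 lay above all control dogs, while CPP-Se replicate 3 lay below control replicate 2. The means were 13.3 ± 2.80 FPKM and 20.0 ± 4.86 FPKM, a log2 fold change of 0.54 (standard error 0.24, unadjusted p = 0.0585, adjusted p = 0.335 from limma), or 1.45-fold with a 95% interval of 0.983-fold to 2.15-fold. By p it stood at position 1716 of the 9847 genes. With each dog left out in turn the log2 fold change was 0.42 to 0.75, the highest without CPP-Se replicate 3 (adjusted p = 0.204), and it was 0.43 without CPP-Se replicate 2.

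**Figure D2:**
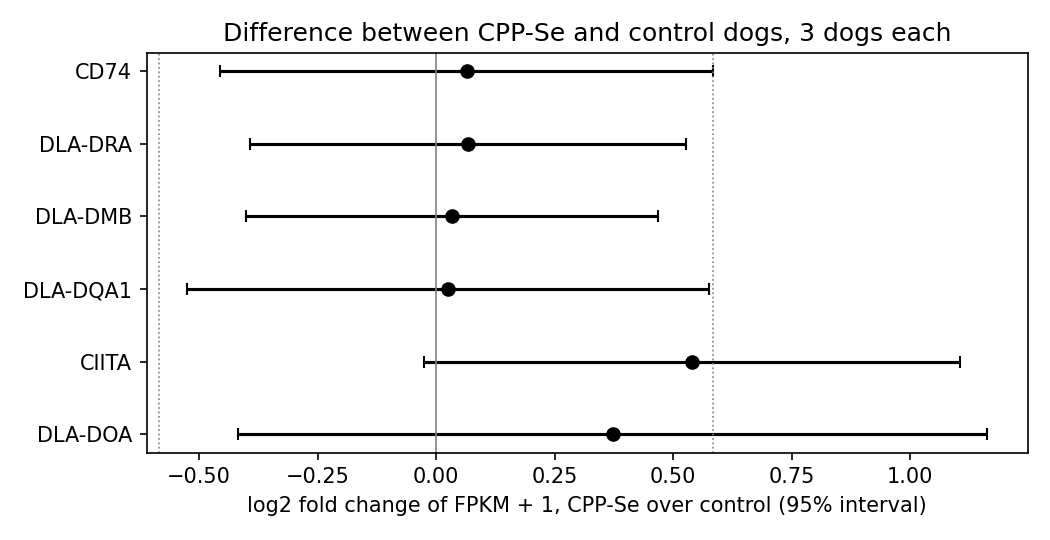
Log2 fold change of FPKM + 1 between CPP-Se and control dogs for the 6 genes, with points at the estimate, bars for the 95% interval from limma and dotted lines at a fold change of 1.5 in either direction. The intervals of the 4 most abundant genes, from 0.694-fold to 1.499-fold at their widest, are centred near 0, while that of CIITA reaches from just under 0 to 1.11.

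The spread over the 6 dogs followed the level. The SD of log2(FPKM + 1) was 0.14 for CD74 and for DLA-DRA, 0.15 for DLA-DMB, 0.27 for DLA-DQA1, 0.41 for CIITA and 0.49 for DLA-DOA, beside a median of 0.35 over all genes tested. Between the highest and the lowest dog DLA-DRA differed 1.25-fold, CIITA 2.08-fold and DLA-DOA 3.68-fold. The 6 genes did not share 1 pattern over the dogs. Pearson correlations of log2(FPKM + 1) over the 6 dogs, given as a description of libraries that share the FPKM scaling, ran from -0.43 (DLA-DMB and DLA-DQA1) to 0.62 (DLA-DMB and CIITA) in the 15 pairs of genes. CIITA correlated with DLA-DRA at 0.26, with DLA-DQA1 at 0.03 and with CD74 at 0.52, and DLA-DRA with DLA-DQA1 at -0.28.

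As a share of the reads outside the hemoglobin genes, which does not depend on the FPKM scaling, the 6 genes together took 0.419%, 0.5004% and 0.509% in the control dogs against 0.517%, 0.702% and 0.459% in the CPP-Se dogs. CPP-Se replicate 2, the library that stood apart, was highest for each of the 6 genes on this measure. CIITA took 0.0128% to 0.0183% of these reads in the control dogs and 0.0161% to 0.0336% in the CPP-Se dogs, so its groups overlapped here too.

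Ratios within a library, which are free of any scaling between dogs, were taken between chains and tested by an exact permutation test (two-sided, 3 dogs against 3, smallest possible p = 0.1). CIITA per unit of DLA-DRA plus DLA-DQA1 was 0.0564, 0.0625 and 0.0466 in the control dogs, while the CPP-Se dogs had 0.101, 0.0864 and 0.0552. CPP-Se replicates 1 and 2 were above the control dogs and CPP-Se replicate 3 was inside their range. The log2 difference was 0.52 (exact p = 0.3). With 3 dogs against 3 the test cannot reach 0.05, so it cannot decide whether CIITA changed differently from the alpha chains. The log2 difference was 0.34 without CPP-Se replicate 1 and 0.77 without CPP-Se replicate 3. CD74 per unit of the same chains was 2.90, 2.94 and 3.38 in the control dogs against 3.46, 3.15 and 2.67 in the CPP-Se dogs, a log2 difference of 0.0064 (exact p = 1). DLA-DRA exceeded DLA-DQA1 3.84 to 7.05 times in the control dogs and 4.199 to 6.67 times in the CPP-Se dogs (exact p = 0.9). DLA-DMB stood at 0.173 to 0.206 of the alpha chains in the control dogs and 0.167 to 0.218 in the CPP-Se dogs (exact p = 0.8). DLA-DOA, which opposes DM, was 0.0335 to 0.101 of DLA-DMB in the control dogs and 0.0504 to 0.110 in the CPP-Se dogs (exact p = 0.6). Over these 5 ratios, every exact p adjusted by Benjamini-Hochberg was 1.

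Whole blood mixes cell types, and in such RNA a change in the number of cells of a type cannot be told apart from a change in the RNA per cell. By summed FPKM, B cell, T cell, and NK and cytotoxic cell markers were higher in all 3 CPP-Se dogs than in any control dog. Those of monocytes and neutrophils were lower in the same way, for neutrophils narrowly (at most 2227 FPKM against at least 2240 FPKM). These sums depend on the FPKM scaling, in which CPP-Se replicate 2 stood apart, and were not compared on another scaling. The summed level of the 12 measured B cell markers was 311 to 432 FPKM in the control dogs and 474 to 502 FPKM in the CPP-Se dogs, without overlap. None of them was at 0 in all dogs, and CD79A gave 73.9% of the sum. Of the 11 tested, 10 had a log2 fold change above 0 and 5 had an unadjusted p under 0.05 and a higher level, against 6.87% of all genes, among them MS4A1 (2.17 to 3.09 FPKM in the control dogs, 3.63 to 5.76 FPKM in the CPP-Se dogs).

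The 10 measured monocyte markers summed to 363 to 473 FPKM in the control dogs and 232 to 256 FPKM in the CPP-Se dogs, also without overlap. All 8 tested had a log2 fold change below 0, and 7 had an unadjusted p under 0.05, against 9.1% of all genes for this direction. CSF1R, the receptor that monocytes need to survive, measured 69.7 to 92.2 FPKM in the control dogs and 23.0 to 53.6 FPKM in the CPP-Se dogs. Of 11 measured dendritic cell markers only 4 passed the filter, and the sums of all 11 overlapped at 22.4 to 47.6 and 42.2 to 55.5 FPKM. CCR7 alone gave 77.7% of this sum, so it mostly describes that gene. Of the 4 tested, 3 had a log2 fold change above 0, while CLEC10A was lower without overlap (-0.63, adjusted p = 0.273 from limma). The sums of 11 T cell markers were 111 to 211 FPKM in the control dogs and 233 to 310.4 FPKM in the CPP-Se dogs, with 6 of the 11 at an unadjusted p under 0.05 and higher. Those of 7 NK and cytotoxic cell markers were 15.7 to 33.4 and 40.3 to 58.8 FPKM, with 2 of 5 tested at such a p and higher. The 7 neutrophil markers summed to 2240 to 2997 and 1736 to 2227 FPKM, with 4 of 7 at such a p and lower. None of these marker genes was called (limma with Benjamini-Hochberg adjustment, adjusted p of at least 0.138), and the part of these cells in the levels of the class II genes and CIITA was not tested. Over the 6 dogs, both groups pooled, CIITA correlated with the B cell sum at 0.695 and with the T cell sum at 0.689. With the dendritic cell sum CIITA correlated at 0.581 and with the monocyte sum at -0.781, on libraries that share the FPKM scaling. The B cell, T cell and monocyte sums did not overlap between the groups, so correlations with them also carry the difference between the groups. On the same libraries the B cell sum correlated with DLA-DOA at 0.706, DLA-DRA at 0.193, DLA-DMB at 0.199, CD74 at -0.193 and DLA-DQA1 at -0.325. DLA-DOA was not particular to the B cell sum, with 0.654 for the dendritic cell, 0.58 for the T cell and -0.531 for the monocyte sum. The T cell sum correlated with DLA-DRA at 0.556, DLA-DMB at 0.479, CD74 at -0.0176 and DLA-DQA1 at -0.482.

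**Figure D3:**
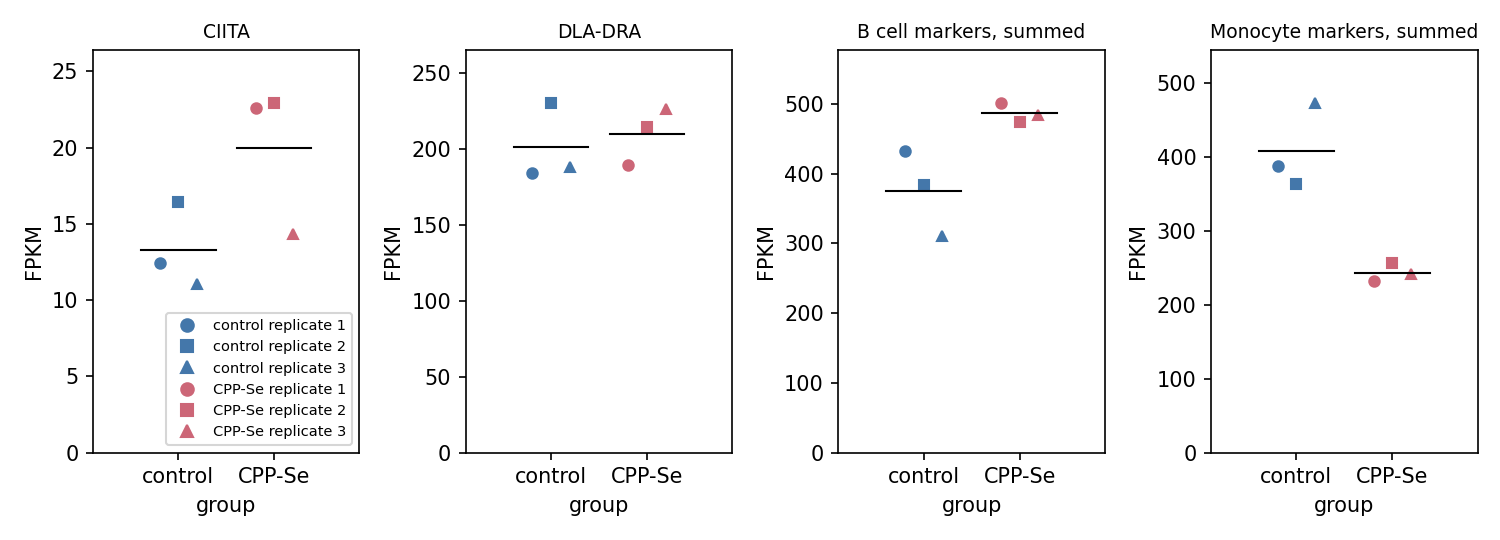
FPKM of CIITA and DLA-DRA and summed FPKM of the B cell and monocyte markers in each dog, by group, with a symbol for each replicate and a black line at the mean of 3 dogs. The marker sums do not overlap between the groups, CIITA overlaps through CPP-Se replicate 3 and control replicate 2, and DLA-DRA overlaps throughout.

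By the likeness of their pattern over the 6 dogs, the genes closest to CIITA among the 9847 tested were MRPL38, HDAC7, SLC27A1, PLD4 and YBEY, with Pearson correlations of 0.98 to 0.99. PLD4, a lysosomal nuclease, had 29.8, 38.7 and 21.5 FPKM in the control dogs against 78.4, 97.1 and 38.2 FPKM in the CPP-Se dogs, so CPP-Se replicate 3 lay within the control range there too. Closest to the mean of the standardized DLA-DRA and DLA-DQA1 were PPIG, AP2A1, CERKL, SLC16A11 and USP34, at 0.97 to 0.98. These values are the highest of 9847 correlations over 6 libraries and describe the libraries only.

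The other genes of the pathway were taken from 5 lists, with 48 genes tested. None was called. An unadjusted p below 0.05 was reached by CD40LG, which was higher in the CPP-Se group, and by 10 genes that were lower, against 6.87% and 9.1% of all genes. The groups did not overlap in 2 genes that were higher and in 13 that were lower. The shares over all genes were 10.4% higher and 12.6% lower.

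The enhanceosome, the set of factors on the class II promoters that CIITA joins, showed no common direction. Its 8 genes split into 3 with a higher and 5 with a lower mean in CPP-Se dogs, from -0.30 for ATF1 to 0.47 for RFXANK on the log2 scale, with a median log2 fold change of -0.10 and 0 unadjusted p under 0.05. The RFX subunits had values on both sides of 0, none past the test. RFXANK measured 9.26 to 12.4 FPKM in the control dogs and 12.6 to 22.5 FPKM in the CPP-Se dogs without overlap (adjusted p = 0.409 from limma). RFXAP lay the other way without overlap, with 1.90 to 2.15 and 1.496 to 1.66 FPKM and a log2 fold change of -0.25 (adjusted p = 0.590). RFX5, the DNA-binding subunit, overlapped at 2.16 to 3.55 and 1.98 to 5.60 FPKM.

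Among the 14 tested genes that act on CIITA transcription, the log2 fold change was above 0 for 7 and below 0 for 7, with a median log2 fold change of -0.0048. SPI1, the myeloid and B cell factor PU.1, measured 282 to 330.4 FPKM in the control dogs and 172 to 232 FPKM in the CPP-Se dogs, or -0.59 with a standard error of 0.21 on the log2 scale (adjusted p = 0.247). IFNGR1, a chain of the receptor for interferon gamma, was 32.7 to 40.6 FPKM in the control dogs and 22.4 to 28.4 FPKM in the CPP-Se dogs, also without overlap. IRF8 overlapped at 13.8 to 17.3 and 9.22 to 31.0 FPKM, and the highest value of the list was that of BACH2, a B cell repressor, at 0.44. IFNG itself had a mean of 0.0852 FPKM and was not tested.

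The endosomal processing genes had a median log2 fold change of -0.41 over 13 genes, with 4 higher and 9 lower and 5 of the lower ones at an unadjusted p under 0.05, against 9.1% of all genes. CTSH, a cathepsin, was 125 to 166 FPKM in the control dogs and 69.0 to 82.4 FPKM in the CPP-Se dogs, the lowest log2 fold change of the list at -0.91 (standard error 0.19, adjusted p = 0.138). CTSS, the protease that trims CD74 down to the piece that DM removes, measured 21.9 to 39.4 FPKM in the control dogs and 13.2 to 21.0 FPKM in the CPP-Se dogs, a log2 fold change of -0.81 (adjusted p = 0.222). IFI30, which reduces disulfides of antigens in the endosome, lay on the other side at 50.8 to 54.7 and 59.6 to 71.5 FPKM without overlap, with a log2 fold change of 0.30 (adjusted p = 0.437). CSTB, an inhibitor of cathepsins, had the highest value at 0.62, and its groups overlapped. The monocyte and neutrophil marker sums given above were lower in the same dogs, and their part in this list was not tested.

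MARCHF1, the ligase that tags surface class II and CD86 for breakdown, measured 7.40 to 10.9 FPKM in the control dogs and 3.74 to 6.997 FPKM in the CPP-Se dogs. Its log2 fold change was -0.69 (standard error 0.26, adjusted p = 0.264), the lowest of the 5 turnover genes tested, and MARCHF8 was the highest at 0.32. The 8 tested genes of costimulation and class II receptors had a median log2 fold change of 0.37, with 5 higher and 3 lower. CD86, which gives T cells the second signal beside class II, was 3.95 to 8.48 FPKM in the control dogs and 1.79 to 2.76 FPKM in the CPP-Se dogs, a log2 fold change of -1.02 (adjusted p = 0.179). CD40 overlapped at 0.921 to 1.79 and 1.28 to 2.65 FPKM. CD4, a receptor of class II that canine neutrophils also carry, had 849 to 1256 FPKM in the control dogs and 613 to 796 FPKM in the CPP-Se dogs, beside the neutrophil marker sums given above. LAG3, the other class II receptor listed, had the highest value of that list at 1.05 (adjusted p = 0.342), with overlap.

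**Figure D4:**
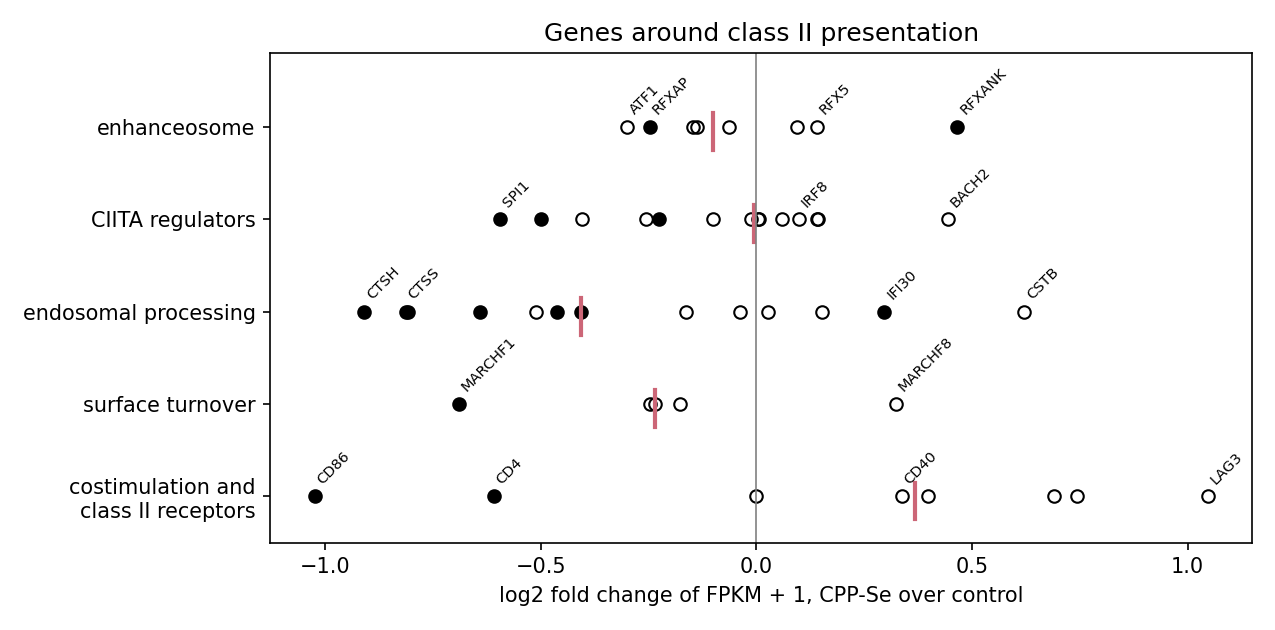
Log2 fold change of FPKM + 1 between CPP-Se and control dogs for the 48 tested genes of the 5 lists, filled where the groups do not overlap and open where they do, with a red bar at the median of each list. The endosomal processing genes lie mostly to the left, with a median of -0.41, and the enhanceosome genes lie around 0.

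In the file, 3 more genes are described as class II histocompatibility antigens but carry no symbol and so fall outside the rule. ENSCAFG00000000814 (chromosome 12, 2244820 to 2251662, minus strand), described as a DQ beta chain, lies 17219 bases from DLA-DQA1. It had 44.3, 33.3 and 52.1 FPKM in the control dogs against 89.3, 69.1 and 16.7 FPKM in the CPP-Se dogs, so CPP-Se replicates held both the highest and the lowest value. ENSCAFG00000000806 (chromosome 12, 2306185 to 2307866, minus strand), also described as a DQ beta chain, had 23, 204 and 0 reads in the control dogs against 2, 2 and 331 reads in the CPP-Se dogs. Only control replicate 2 and CPP-Se replicate 3 had it at a high level, and these dogs had the lowest levels of the first row. Per unit of DLA-DQA1, the first row was 1.02 to 1.21 in the control dogs and 2.51, 1.35 and 0.492 in CPP-Se replicates 1, 2 and 3. Both rows summed were 1.36, 2.60 and 1.07 per unit of DLA-DQA1 in control replicates 1, 2 and 3, while CPP-Se replicates 1, 2 and 3 had 2.52, 1.36 and 3.07, so that CPP-Se replicate 3 was the highest dog. Neither row was called (adjusted p = 0.925 and 0.949 from limma), and the part of the dogs' own alleles in these levels was not tested. The third, ENSCAFG00000000900, described as a DP beta chain, was at 0 reads in all dogs, against a floor of 3 reads that covers counting error only.

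**Figure D5:**
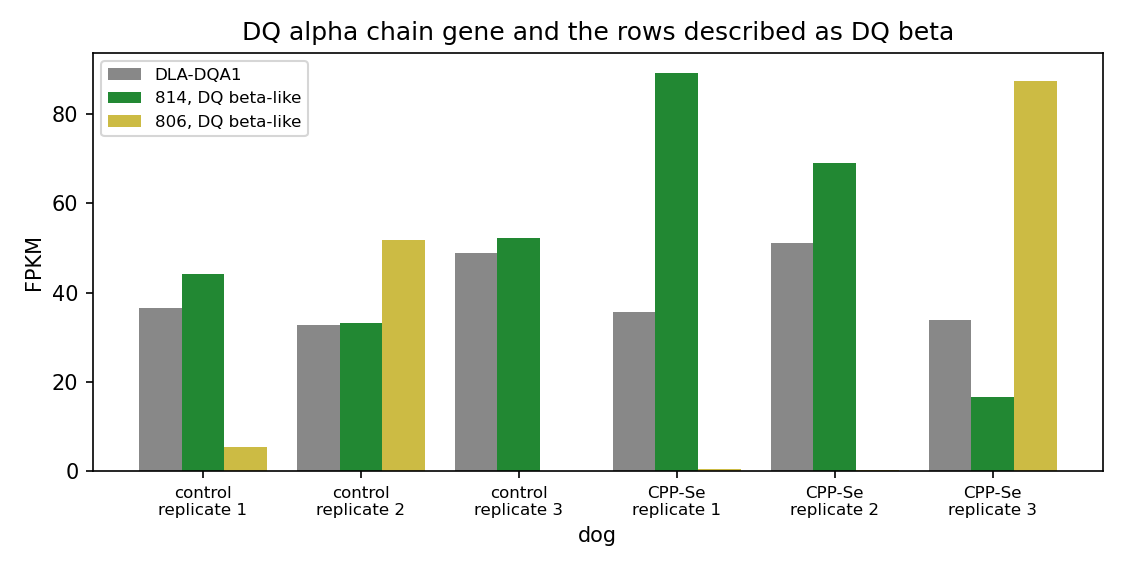
FPKM of DLA-DQA1 and of the genes ENSCAFG00000000814 and ENSCAFG00000000806, named by their last 3 digits, as bars in each dog. The gene ENSCAFG00000000806 is high in control replicate 2 (51.7 FPKM) and CPP-Se replicate 3 (87.5 FPKM) and at most 5.45 FPKM in the other dogs, while DLA-DQA1 stays between 32.7 and 51.1 FPKM.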

How the data were processed

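The authors sequenced oligo(dT)-selected RNA in pairs, used HISAT2 (version 2.0.5) for alignment against the Ensembl release 100 dog genome and StringTie for assembly, and deposited FPKM, the only values used. The submitters' processing notes also name featureCounts 1.5.0-p3 and fastp 0.19.7. Use of strand and shared reads is not stated. Read numbers were recovered from FPKM times gene length, which came out whole (within 0.1, in steps fixed per library) for at least 99.99% of genes above 0. Reads on genes were 6598173 to 8067034 per dog.

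The test covered the 9847 genes that averaged 1 FPKM or more, on log2(FPKM + 1) with limma 3.58.1 in R 4.3.3 (lmFit, eBayes with trend, two-sided), with Benjamini-Hochberg adjustment. Called genes had an adjusted p below 0.05 with at least a 1.5-fold difference. The pseudocount lowers the fold change of low genes. The fit was tested on simulated data. Ratios were compared by exact permutation tests.

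The genes, lists and tests were chosen with earlier results of these data known. Named were all 6 genes, fixed members and the extremes of each list, the 5 genes most alike in pattern, and class II genes without a symbol. IFNGR1, CD4, CD40LG, PLD4, MS4A1, CSF1R, CCR7 and CLEC10A were named after their values were seen. Replicate numbers pair no dogs. Alternatives covered the pseudocount, filter, scaling, model and each dog. No sequences are shown, as none were used here. The values of 1 marker gene are not reported here.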

Additional observations from a re-analysis of the deposited data

How the results depend on the processing

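None of the 6 genes was called under any of the 18 alternatives: another pseudocount, 2 other filters, 3 other scalings, eBayes without a trend, array weights, limma-voom on recovered reads, replicate number as a block, each dog left out, and, chosen after seeing the data, limma-voom with reads on genes as library size and with sample quality weights. DLA-DOA did not pass the 5 FPKM filter and was tested in the other 17. CIITA kept its direction in all 18 (log2 fold change 0.42 to 0.75, adjusted p from 0.144 to 0.668) and had an unadjusted p under 0.05 in 6 of them. With a dog left out, the log2 fold changes were -0.0344 to 0.14 for CD74, -0.0330 to 0.16 for DLA-DMB and -0.16 to 0.19 for DLA-DQA1, and the log2 ratio differences were -0.17 to 0.27 for DLA-DRA over DLA-DQA1, -0.14 to 0.0486 for DLA-DMB and -0.0789 to 0.11 for CD74 over the alpha chains. These turned in direction, and the cause was not tested. The ratio of DLA-DOA to DLA-DMB kept its direction at 0.08 to 0.88, as did DLA-DRA at 0.0091 to 0.17 and DLA-DOA at 0.05 to 0.61 (0.62 with limma-voom on recovered reads, 0.69 with reads on genes as library size and 0.17 with sample quality weights), and that of CIITA to the alpha chains at 0.34 to 0.77. Limma-voom with sample quality weights called 2 pathway genes, CTSH and LAMP2, and 0 of the 6. Over all genes, 3 were called, against 0 with a pseudocount of 0.1 or no filter, 1 with a 5 FPKM filter, limma-voom or the block, 14 with a common sum of FPKM (2 without hemoglobin), 50 and 156 with the added limma-voom fits, and 0 to 14 with a dog left out (14 without CPP-Se replicate 2). A common sum of FPKM raised the median of all genes to 0.13, and relative to it CIITA was 0.56 and DLA-DRA 0.10 higher. Dogs of the same replicate number did not deviate together (correlations 0.02, -0.09 and -0.04), and with the replicate block the log2 fold change of CIITA was 0.54 (adjusted p = 0.348 from limma). The precision is limited by 3 dogs per group and, for DLA-DOA, by 30 to 183 reads.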

Other observations

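PSMB9, the immunoproteasome subunit that lies between the DQ and DM genes on chromosome 12 (2432505 to 2438069), was chosen after its values were seen. It had 58.6, 36.9 and 64.4 FPKM in control replicates 1, 2 and 3 and 175.9, 96.5 and 22.8 FPKM in CPP-Se replicates 1, 2 and 3. Its dogs stood in the same order as those of the DQ beta-like gene ENSCAFG00000000814, with a Pearson correlation of 0.97 over the 6 dogs, place 8 of the 9846 genes compared. An identical order of dogs was found in 26 of these genes. DLA-DQA1, which lies nearer to that gene, correlated with it at 0.49 and DLA-DRA at -0.60.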
